A study of Homo sapiens with 6 samples.

Results

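The genes described here encode the 6 human peroxiredoxins (PRDX1 to PRDX6) and TXN, a thioredoxin that recharges some of them. The other genes encode the superoxide dismutases of the cytosol and the mitochondrial matrix (SOD1 and SOD2) and the glutathione transferase GSTP1. All 10 genes were chosen by gene symbol and had rows among the 10072 genes of the table, with 51 of its 21472 transcript models. The table counted long cDNA reads, sequenced on an Oxford Nanopore flow cell for 72 h, in Calu-6, a cell line established from a human lung tumour (non-small cell lung cancer). In 3 libraries the cells had received siControl, a non-silencing siRNA, and in 3 libraries siDelta2-4, an siRNA against the junction of exons 1 and 5 of the Delta 2-4 splice variant of TERT (telomerase reverse transcriptase), each at 10 nM for 48 h, to ask which transcripts differ once that variant is targeted. Both groups were labelled WT, whereas the column names carried the word the study uses for cells stably holding an empty Flag-V5 vector, and this difference was not resolved. The study's text speaks of the libraries as biological replicates, while the labels do not say whether they came from separate cultures, and p-values measure the spread between these libraries.

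Library totals ran from 1037468 to 1106413 counts in siControl and from 1070009 to 1309241 in siDelta2-4. Columns could not be matched to single samples, so each library is named by its group and by whether its total was the highest, middle or lowest there, and values for a group are always listed in that order. TERT itself had no rows, so the knockdown could not be checked here. Of the 6 epithelial markers, 5 had rows (CDH1 had none), and their summed level was 280 to 295 CPM in siControl and 276 to 334 CPM in siDelta2-4. CPM is the count scaled to a common library size, on totals adjusted by edgeR's TMM method. No marker of lung lineage (0 of 4), blood (0 of 3), endothelium (0 of 2) or fibroblasts (0 of 3) had rows. Of the 3 mesenchymal markers, VIM and FN1 had rows, and their summed level was 125 to 146 CPM in siControl and 153 to 168 CPM in siDelta2-4, without overlap, and its part in the results below was not tested.

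Peroxiredoxins reduce hydrogen peroxide with a cysteine, the peroxidatic cysteine, that is oxidised by the peroxide and then restored by a thiol. In PRDX1 to PRDX4 that thiol pair is completed by a partner subunit and in PRDX5 within one subunit, after which a donor such as a thioredoxin resets the enzyme. PRDX6 has no second catalytic cysteine and relies on glutathione and GSTP1. Which donor serves each enzyme was not examined here. The enzymes work in different places: PRDX1, PRDX2 and PRDX6 mainly in the cytosol, PRDX3 in mitochondria, PRDX4 in the endoplasmic reticulum, and PRDX5 in mitochondria, peroxisomes and cytosol. SOD1 and SOD2 act a step earlier and turn superoxide into the hydrogen peroxide that these enzymes remove.

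The stretch around the peroxidatic cysteine is shown because it defines the family and because 1 transcript model of PRDX5 lacks it. Each line gives 24 bases of the most counted annotated transcript (Gencode on GRCh38), 5′ to 3′ in the sense of the gene, from the conserved proline codon to the cysteine codon, which is in capitals.
PRDX1: cctcttgacttcacctttgtgTGC
PRDX2: cctctggacttcacttttgtgTGC
PRDX3: cctttggatttcacctttgtgTGT
PRDX4: ccacttgatttcacatttgtgTGT
PRDX5: cctggggccttcacccctggaTGT
PRDX6: cctcgggactttaccccagtgTGC
The cysteine is codon 52 of PRDX1 (chr1:45515758-45515781, minus strand, exon 3), codon 51 of PRDX2 (chr19:12801020-12801043, minus strand, exon 3), codon 100 of PRDX5 (chr11:64319839-64319862, plus strand, exon 2) and codon 47 of PRDX6 (chr1:173481348-173481371, plus strand, exon 2). In PRDX3 and PRDX4 the stretch crosses a splice junction. In PRDX3 it joins chr10:119174451-119174461 in exon 3 to chr10:119173860-119173872 in exon 4 on the minus strand and ends at codon 108, and in PRDX4 it joins chrX:23671636-23671646 in exon 2 to chrX:23674990-23675002 in exon 3 on the plus strand and ends at codon 124. Whole coding sequences were also aligned end to end, and identical bases were divided by all aligned columns, gaps included. By this measure PRDX1 and PRDX2 were 72.6% identical and PRDX3 and PRDX4 60.8%, and the remaining pairs of peroxiredoxins lay between 46.8% and 52.3%. Gaps lower the value for pairs of unequal length, such as PRDX1 (199 codons) and PRDX4 (271 codons). The values therefore do not rank how closely such pairs are related.

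Of these genes, 2 differed between siDelta2-4 and siControl: PRDX4 rose and PRDX5 fell. All 10 passed the filter on low counts (filterByExpr, which keeps a gene with enough counts in as many libraries as the smaller group), with 303 to 7507 counts over the 6 libraries. The test was edgeR's quasi-likelihood test with Benjamini-Hochberg adjustment over all 3888 genes tested, and a gene was called at an adjusted p under 0.1. Of all genes tested 13% were called, 7% higher and 5.97% lower, so that the 2 of 10 here, 1 in each direction, are not read as a result about the group. PRDX4 and PRDX5 were also the only 2 with an unadjusted p under 0.05 (23.1% of all genes) and the only 2 whose CPM did not overlap between the groups (26% of all genes). The median log2 fold change of the 10 was 0.01, against 0.03 over all genes tested.

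PRDX4, the peroxiredoxin of the endoplasmic reticulum (ENSG00000123131.13, chrX:23664262-23686397, plus strand), was counted 66, 92 and 82 times after siControl and 179, 135 and 146 times after siDelta2-4. On TMM-scaled totals this was 64.3, 88.2 and 78.5 CPM against 137, 110 and 137 CPM, so that the lowest siDelta2-4 library lay above the highest siControl library. The level was 77.0 ± 12.01 CPM (SD, n = 3) in siControl and 128 ± 15.8 CPM (SD, n = 3) in siDelta2-4, 1.66-fold higher with a 95% confidence interval of 1.36 to 2.03. The log2 fold change was 0.73 ± 0.14 (SE), with an adjusted p of 0.00164 in edgeR's quasi-likelihood test. Of all genes tested, 6.33% had a log2 fold change at least this far from 0. Under 17 other settings the log2 fold change of PRDX4 lay between 0.60 and 0.83 with adjusted p between 0.000129 and 0.0209, and the call held in each. Settings that kept only annotated transcripts or summed both strands left the counts of PRDX4 itself unchanged, so they were no check of those counts.

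The PRDX4 counts lay almost wholly on 1 annotated transcript, PRDX4-202, with 7 exons and 956 bases. It held 97.7% of the gene's counts, 65, 90 and 80 after siControl and 175, 132 and 142 after siDelta2-4, and was higher in siDelta2-4 by a log2 fold change of 0.75 ± 0.15 (SE, edgeR's quasi-likelihood test on models, adjusted p = 0.00268). The shorter PRDX4-201, with 3 exons, held the other 2.29%. Of the 26 models of the 10 genes that could be tested, PRDX4-202 was the only one called, beside 6.91% of all 6768 models tested. An unadjusted p under 0.05 was found for 4 of the 26, a count not read as a result because the share over all models is not given here. No annotated gene overlaps PRDX4 on the other strand, and unannotated genes came without coordinates, so counts opposite it could not be looked for.

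PRDX5, the peroxiredoxin that resets its cysteine within one subunit (ENSG00000126432.14, chr11:64318121-64321811, plus strand), was counted 165, 175 and 167 times after siControl and 156, 150 and 136 times after siDelta2-4, whose totals were larger on average. Scaled, its level was 161, 168 and 160 CPM in siControl and 120, 122 and 127 CPM in siDelta2-4. The libraries of each group lay close together and the groups did not overlap: 163 ± 4.30 CPM (SD, n = 3) against 123 ± 3.94 CPM (SD, n = 3). The fold was 0.754 (95% confidence interval 0.643 to 0.885). On the log2 scale PRDX5 fell by 0.41 ± 0.11 (SE, edgeR's quasi-likelihood test, adjusted p = 0.0241). A difference of at least this size was common, at 25.4% of all genes tested.

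The call of PRDX5 depended on single libraries. Leaving out the middle siControl library gave a log2 fold change of -0.39 and an adjusted p of 0.109 in edgeR's test, leaving out the highest siDelta2-4 library gave -0.39 and 0.114, and leaving out the middle siDelta2-4 library gave -0.40 and 0.104. In the other 14 settings the call of PRDX5 held, with log2 fold changes from -0.44 to -0.34 over all 17.

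**Figure D1:**
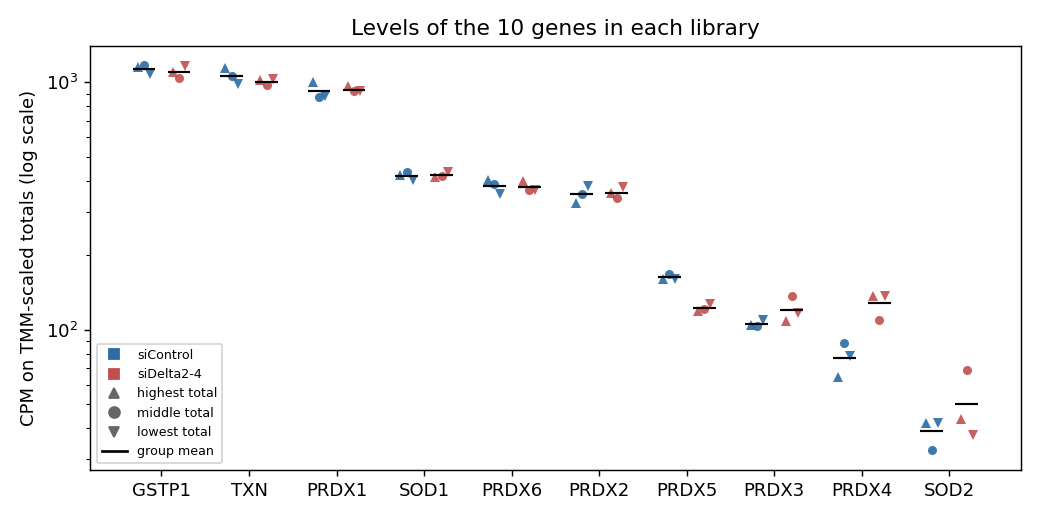
Level of each of the 10 genes in each library, as CPM on TMM-scaled totals on a log axis, with genes ordered by mean level. Blue marks are siControl and red marks siDelta2-4, the mark's shape gives the library's rank by total count, and black lines are group means of 3 libraries. PRDX4 (77.0 to 128 CPM) and PRDX5 (163 to 123 CPM) are the genes whose groups do not overlap.

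The opposite moves of PRDX4 and PRDX5 could also be seen with no scaling between libraries, by dividing counts within a library. PRDX4 had 0.40, 0.526 and 0.491 counts per PRDX5 count in siControl and 1.15, 0.900 and 1.07 in siDelta2-4, a ratio of 0.472 ± 0.0649 (SD, n = 3) against 1.04 ± 0.127 (SD, n = 3). The lower-count gene of the pair in every siControl library had therefore drawn about level with the other in siDelta2-4. As a share of the counts of all 6 peroxiredoxins, PRDX4 made up 3.86% ± 0.678 after siControl and 6.25% ± 0.666 after siDelta2-4 (SD, n = 3 each), and PRDX5 made up 8.15% ± 0.338 and 6.02% ± 0.241 (SD, n = 3 each). The largest share, that of PRDX1, was 45.9% ± 2.39 and 45.8% ± 0.723 (SD, n = 3 each). All these shares leave out counts on the opposite strand, described below.

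PRDX5 was the only peroxiredoxin counted on 3 annotated splice forms, each with more than 40 counts, and 1 of them, PRDX5-202, lacks the exon with the peroxidatic cysteine. The 3 forms are told apart by their junctions, shown as the last 12 bases of the upstream exon in lower case and the first 12 bases of the downstream exon in capitals (chromosome 11, plus strand, GRCh38).
PRDX5-201, exons 1 and 2: gccccaatcaagGTGGGAGATGCC
PRDX5-201, exons 2 and 3: ggatgttccaagACACACCTGCCA
PRDX5-203, exons 2 and 4: ggatgttccaagGTTCGGCTCCTG
PRDX5-202, exons 1 and 4: gccccaatcaagGTTCGGCTCCTG
Exon 1 ends at base 64318386, exon 2 spans 64319734 to 64319868, exon 3 spans 64320661 to 64320792 and exon 4 starts at 64320865. PRDX5-203 skips exon 3 (132 bases), and PRDX5-202 skips exon 3 and also exon 2 (135 bases), which holds codon 100, the peroxidatic cysteine printed above. Both lengths are multiples of 3, and the annotated coding length is 642 bases for PRDX5-201, 510 for PRDX5-203 and 375 for PRDX5-202.

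The full form PRDX5-201 (860 bases) held 83.9% of the gene's counts, 135, 140 and 139 after siControl and 134, 130 and 118 after siDelta2-4. PRDX5-202, the form without the cysteine codon (463 bases), held 19, 25 and 20 counts against 16, 13 and 12, and PRDX5-203 (596 bases) held 11, 10 and 8 against 6, 7 and 6. As shares of the gene, PRDX5-201 was 81.7% ± 1.62 after siControl and 86.4% ± 0.475 after siDelta2-4, PRDX5-202 was 12.6% ± 1.49 and 9.25% ± 0.876, and PRDX5-203 was 5.72% ± 0.938 and 4.31% ± 0.420 (SD, n = 3 each). None of these 3 shares, which sum to the whole gene and so are not independent, overlapped between the groups. Among all 4188 tested models of genes with at least 2 tested models, the share of the gene did not overlap for 13%. The test of the split over models did not pass: edgeR's diffSpliceDGE, which compared the forms that passed its filter, PRDX5-201 and PRDX5-202, gave an adjusted p of 0.613 (unadjusted 0.0769). Nor did either form pass alone, with log2 fold changes of -0.30 ± 0.12 (SE) for PRDX5-201 (adjusted p = 0.186) and -0.82 ± 0.29 (SE) for PRDX5-202 (adjusted p = 0.113) in edgeR's quasi-likelihood test on models. PRDX5-203 had too few counts to be tested.

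**Figure D2:**
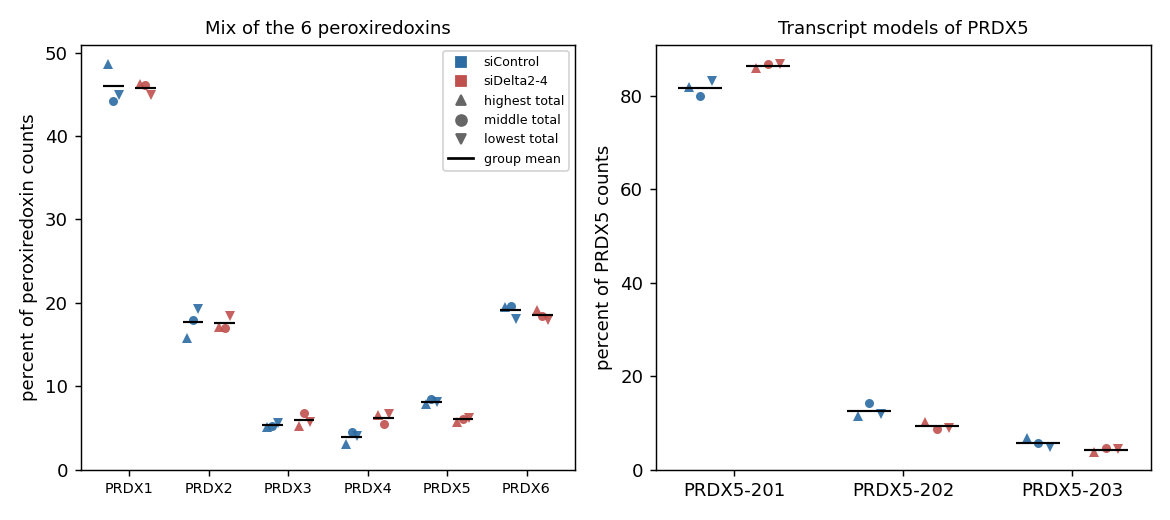
Left, each peroxiredoxin as a percentage of all peroxiredoxin counts of a library, and right, each PRDX5 transcript model as a percentage of the gene's counts. Blue marks are siControl, red marks siDelta2-4, shapes give the rank of the library's total and black lines are means of 3 libraries. PRDX4 went from 3.86% to 6.25% of the peroxiredoxin counts and PRDX5 from 8.15% to 6.02%, while the PRDX5 forms lacking exons held less of the gene's counts in siDelta2-4 (12.6% to 9.25% for PRDX5-202) in a split that did not pass its test.

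For the other 4 peroxiredoxins no difference passed the test. PRDX1, the most abundant, had 1001, 874 and 884 CPM in siControl and 963, 924 and 921 CPM in siDelta2-4, and its log2 fold change was 0.03 ± 0.08 (SE, edgeR's quasi-likelihood test, adjusted p = 0.888). PRDX2, its closest relative in sequence, had 353 ± 27.8 and 358 ± 19.0 CPM (SD, n = 3 each), a log2 fold change of 0.02 with a 95% confidence interval of -0.18 to 0.22. PRDX6, the form that works with glutathione, had 382 ± 23.9 and 379 ± 16.9 CPM (SD, n = 3 each), a log2 fold change of -0.01 with an interval of -0.20 to 0.18. The intervals of these 3 genes reached no further than 0.22 from 0, which does not show that the levels were equal. PRDX3, the mitochondrial peroxiredoxin, had 104, 104 and 110 CPM in siControl and 108, 137 and 117 CPM in siDelta2-4. The SD of its siControl libraries was 3.60 CPM and that of its siDelta2-4 libraries 14.5 CPM, and its log2 fold change of 0.19 ± 0.13 (SE) did not pass edgeR's quasi-likelihood test (adjusted p = 0.40, interval -0.07 to 0.44). The value of PRDX3 was 0.08 without the middle siDelta2-4 library.

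TXN, a thioredoxin that supplies electrons to some of the peroxiredoxins, had 1139, 1058 and 988 CPM in siControl and 1018, 974 and 1029 CPM in siDelta2-4. Its groups overlapped, and its log2 fold change was -0.08 ± 0.08 (SE, edgeR's quasi-likelihood test, adjusted p = 0.621, interval -0.24 to 0.09). GSTP1, the transferase that serves PRDX6 and conjugates glutathione to electrophiles, had 1138 ± 46.0 and 1104 ± 58.7 CPM (SD, n = 3 each) and a log2 fold change of -0.04 with an interval of -0.21 to 0.12 (edgeR, adjusted p = 0.791). SOD1, the copper and zinc enzyme of the cytosol, had 422, 435 and 403 CPM in siControl and 414, 419 and 435 CPM in siDelta2-4, and a log2 fold change of 0.01 with an interval of -0.18 to 0.19. Of the 10 genes, 6 had a log2 fold change within 0.1 of 0 (PRDX1, PRDX2, PRDX6, TXN, SOD1 and GSTP1), and the 95% confidence intervals of these 6 lay between -0.24 and 0.22.

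**Figure D3:**
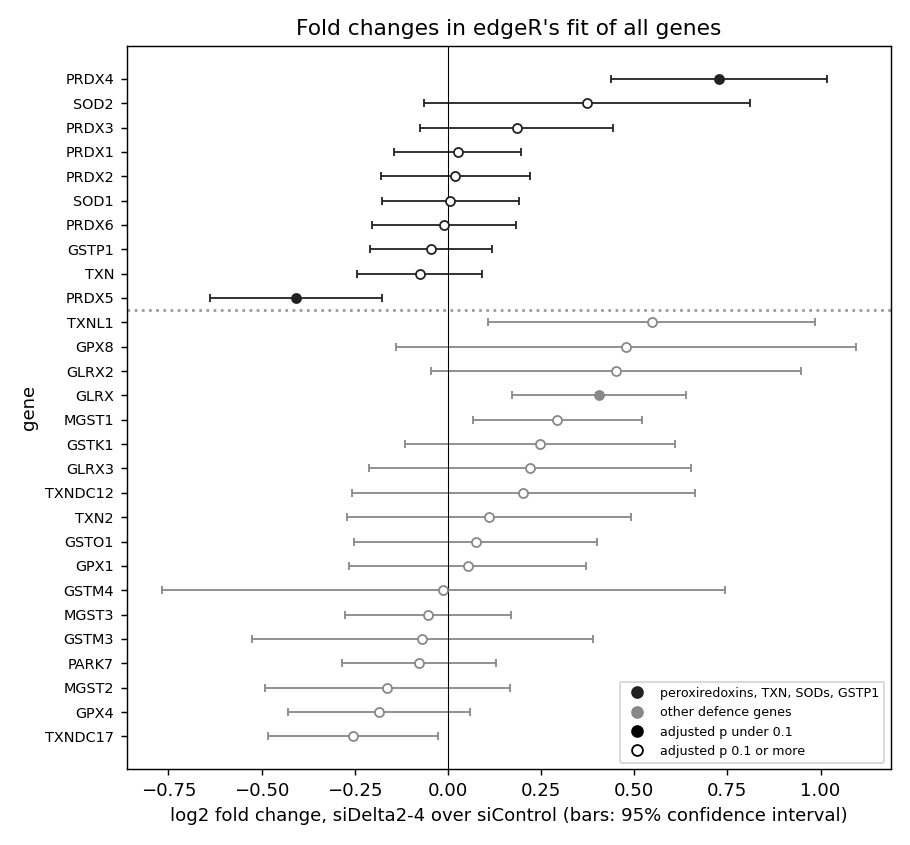
Log2 fold change of siDelta2-4 over siControl with its 95% confidence interval from edgeR's fit of all 3888 genes, for the 10 genes (black, above the dotted line) and for 18 other genes of peroxide, superoxide and glutathione defence (grey). Filled points have an adjusted p under 0.1: PRDX4 at 0.73, PRDX5 at -0.41 and, among the others, GLRX at 0.41.

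SOD2, the manganese enzyme of the mitochondrial matrix, had the lowest level and the least certain identity. Its siControl libraries had 41.9, 32.6 and 42.1 CPM and its siDelta2-4 libraries 43.7, 69.1 and 37.5 CPM, so that a single one, the middle siDelta2-4 library, stood above the rest. The log2 fold change of 0.37 ± 0.21 (SE) did not pass edgeR's quasi-likelihood test (adjusted p = 0.303), and it was 0.07 without that library. Only 28.4% of the SOD2 counts lay on annotated transcripts, SOD2-203 (14.5%) and SOD2-210 (11.2%) being the largest, and on annotated transcripts alone its level ranged from 7.67 to 21.9 CPM over the 6 libraries, with a log2 fold change of 0.10. The other 71.6% lay on an unannotated model with 9 exons and 1505 bases (TALONT000369791). ACAT2, an enzyme of sterol and ketone metabolism whose gene overlaps the far end of the SOD2 locus on the other strand (chr6:159762045-159779112 against chr6:159669069-159762529), had 9 exons and 1520 bases in its own most counted transcript. It was counted 24, 34 and 36 times after siControl and 46, 45 and 32 times after siDelta2-4, or 0.529 to 1.00 of the SOD2 counts of the same library.

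Counts close to those of the gene were also found on the opposite strand at PRDX1, PRDX2 and SOD1. PRDX1 had 6237 counts over the 6 libraries, and MMACHC, a cobalamin-processing gene that overlaps it on the plus strand, had 6233, of which its annotated transcript MMACHC-201 held 8. The main model under MMACHC had 6 exons and 960 bases, beside 6 exons and 945 bases for PRDX1-202. PRDX2 had 2386 counts and the overlapping plus-strand gene ENSG00000267062 had 2237, with 6 exons and 925 bases in the main model of each. SOD1 had 2827 counts and SOD1-DT, the divergent transcript that starts next to it on the minus strand and was looked at after its values were seen, had 2675. Within a library these ratios were 0.898 to 1.07 for PRDX1, 0.843 to 1.08 for PRDX2 and 0.907 to 0.971 for SOD1. The sources used here do not say that reads were oriented before counting, and without strand the reads of a gene and of its partner on the other strand cannot be told apart.

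None of these opposite-strand genes passed edgeR's quasi-likelihood test between the groups. Their log2 fold changes were 0.04 for MMACHC, -0.05 for ENSG00000267062, 0.01 for SOD1-DT and 0.17 for ACAT2 (adjusted p = 0.816, 0.810, 0.952 and 0.675). Counting both strands together, a choice made after seeing the data, left PRDX4 and PRDX5 as the called genes. PRDX3, PRDX4, PRDX5, TXN and GSTP1 have no annotated gene overlapping them on the other strand. Unannotated genes came without coordinates, so counts opposite these genes could not be looked for and their own counts may be incomplete. Of the annotated pseudogenes named for these genes only TXNP4 had a row, with 1 count.

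**Figure D4:**
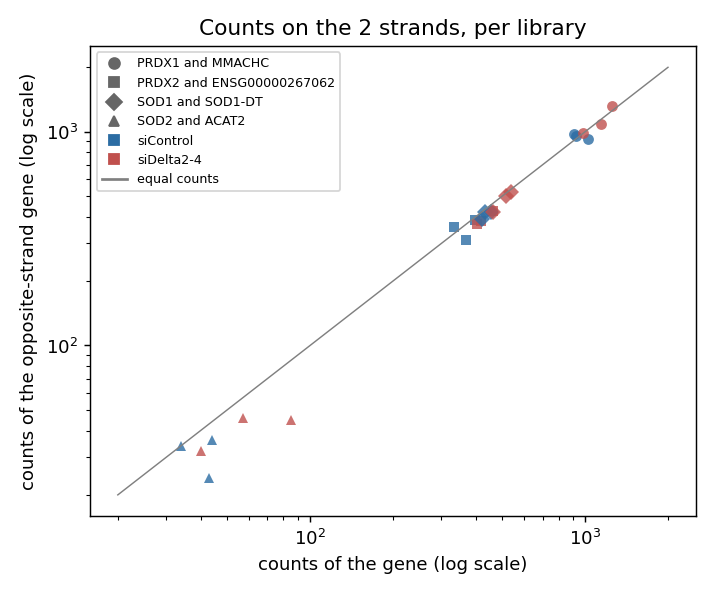
Counts of PRDX1, PRDX2, SOD1 and SOD2 in each library (x axis) against counts of the annotated gene on the other strand (y axis), both on log axes. Each mark is a library, blue for siControl and red for siDelta2-4, the shape gives the pair of genes, and the line marks equal counts. The pairs of PRDX1, PRDX2 and SOD1 lie along the line (ratios of 0.843 to 1.08), and SOD2 and ACAT2 lie on or below it (0.529 to 1.00).

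The 10 genes spanned a wide range of levels. In CPM per gene, averaged over both groups, GSTP1 (1121), TXN (1034) and PRDX1 (928) stood highest, followed by SOD1 (421), PRDX6 (380) and PRDX2 (356), and then by PRDX5 (143), PRDX3 (113), PRDX4 (102) and SOD2 (44.5). Only 3 of the 9 neighbouring pairs in that order did not overlap over the 6 libraries: PRDX1 and SOD1, SOD1 and PRDX6, and PRDX2 and PRDX5. These levels leave out the counts on the opposite strand, which were 0.843 to 1.08 of the gene's own at PRDX1, PRDX2 and SOD1. Whether those reads belong to the 3 genes cannot be told, and their places in the order depend on it. At genes without an annotated partner such counts could not be looked for. In siControl alone the order of the lower peroxiredoxins by mean was PRDX5 (163), PRDX3 (106) and PRDX4 (77.0). In siDelta2-4 alone the means were 128 for PRDX4, 123 for PRDX5 and 121 for PRDX3. The siDelta2-4 libraries of these 3 genes overlapped (110 to 137, 120 to 127 and 108 to 137 CPM), so they gave no clear order. On annotated transcripts alone TXN (1009 CPM), PRDX1 (847) and GSTP1 (740) stood highest, without overlap, so that GSTP1 moved from the top of the order to below PRDX1. A long read is counted once on a whole model, so a count need not grow with length as it does for short reads. Divided all the same by the mean length of the counted models, which lowers genes of long transcripts such as PRDX6 and PRDX3, the order was GSTP1 (1540 CPM per kb), TXN (1414), PRDX1 (987), SOD1 (468), PRDX2 (386), PRDX6 (238), PRDX5 (178), PRDX4 (107), PRDX3 (72.9) and SOD2 (15.7). On that scale 7 of the 9 neighbouring pairs were apart, and GSTP1 and TXN, like PRDX4 and PRDX3, overlapped. Together the 10 genes took 0.446%, 0.452% and 0.452% of each siControl library and 0.464%, 0.469% and 0.471% of each siDelta2-4 library, as shares of unscaled totals that did not overlap. On TMM-scaled totals the direction turned and the groups overlapped, with summed levels of 4659 ± 164 CPM in siControl and 4628 ± 106 CPM in siDelta2-4 (SD, n = 3 each).

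The models of the other genes were mostly the annotated full-length forms. PRDX1-202 held 90.6% of the PRDX1 counts, PRDX2-201 85.3% of those of PRDX2, PRDX3-201 92.8% of those of PRDX3 and TXN-202 97.5% of those of TXN. SOD1 counts were divided between SOD1-201 (77.6%) and a family of unannotated models led by TALONT000582358 (10.97%, 921 bases beside 895 for SOD1-201). GSTP1 counts were divided between GSTP1-202 (65.7%, 741 bases) and shorter unannotated models led by TALONT000646728 (24.7%, 708 bases), which TALON classed as a truncated match lacking the start of a longer model. For PRDX6, PRDX6-201 (1690 bases) held 87.0% ± 0.309 of the gene's counts after siControl and 89.6% ± 1.07 after siDelta2-4, and an unannotated model of 899 bases (TALONT000500961) held 11.6% ± 0.674 and 9.09% ± 1.48 (SD, n = 3 each). These shares did not overlap between the groups, but the usage test of diffSpliceDGE did not pass (adjusted p = 0.573). Of the 7 genes with enough models for that test, 0 were called by edgeR and 0 had an unadjusted p under 0.05, beside 0.618% called of all 1132 genes tested for usage.

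The rest of the defence system was examined on 43 further genes in 3 lists, of which 28 had rows and 18 could be tested. Only GLRX, glutaredoxin 1, which removes glutathione from protein cysteines, was called: it had 161, 133 and 160 CPM in siControl and 192, 211 and 199 CPM in siDelta2-4, without overlap. It rose by a log2 fold change of 0.41 ± 0.11 (SE, edgeR's quasi-likelihood test, adjusted p = 0.0264). The call of GLRX was lost on leaving out the middle siControl library (log2 fold change 0.32, adjusted p = 0.191) or the middle siDelta2-4 library (0.37, adjusted p = 0.131). Called genes were 1 of 18, beside 13% of all genes, and 4 of 18 had an unadjusted p under 0.05, beside 23.1% of all genes. The CPM of 5 of 18 did not overlap between the groups, beside 26% of all genes. The median log2 fold change of the 18 was 0.09.

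In the list of glutathione synthesis and transfer, 10 of 20 genes could be tested, 1 rose (GLRX), 0 fell and 9 did not pass, with a median log2 fold change of 0.15. MGST1, a membrane-bound glutathione transferase, had 152, 181 and 184 CPM in siControl and 211, 209 and 214 CPM in siDelta2-4, which did not overlap, and a log2 fold change of 0.29 ± 0.11 (SE) with an adjusted p of 0.1005 in edgeR's quasi-likelihood test. MGST2, of the same enzyme class, did not overlap in the other direction, with means of 63.9 CPM in siControl and 56.9 CPM in siDelta2-4. Its log2 fold change was -0.16 (edgeR's quasi-likelihood test, adjusted p = 0.583). For MGST3, also of this class, the value was -0.05 (adjusted p = 0.814).

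In the thioredoxin list, 4 of 13 genes could be tested and none passed the test, with a median log2 fold change of 0.16. TXNDC17, a small thioredoxin-like protein, was the most abundant, at 261 ± 33.8 CPM after siControl and 219 ± 16.6 CPM after siDelta2-4 (SD, n = 3 each), with a log2 fold change of -0.26 (edgeR's quasi-likelihood test, adjusted p = 0.156). TXN2, the mitochondrial thioredoxin, was at 0.11 (adjusted p = 0.775), and TXNL1, a thioredoxin-like protein of the proteasome, was at 0.55 (adjusted p = 0.113). TXNRD1 and SRXN1, the cytosolic thioredoxin reductase and the sulfiredoxin that repairs overoxidised peroxiredoxins, had no rows, and TXNRD2, the mitochondrial reductase, had 5 counts in all. Of the enzymes acting on superoxide and peroxide, 4 of 10 could be tested and none passed, with a median of -0.01. PARK7, a redox-sensitive chaperone, had a log2 fold change of -0.08, GPX4, which reduces lipid peroxides, -0.19, and GPX1, the main cytosolic glutathione peroxidase, 0.05 (edgeR, adjusted p = 0.696, 0.366 and 0.876). Catalase (CAT) had 55 counts over the 6 libraries and was below the filter.

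For the 3 genes with the largest absolute log2 fold changes, the genes with the most similar profile over the 6 libraries were sought among 3887 others by Pearson correlation of log2 CPM, as a description, since libraries of 2 groups share the group difference and their depth. For PRDX4 they were RAB11A, a small GTPase of recycling endosomes (r = 0.993), and MMRN2, an extracellular matrix glycoprotein (r = 0.990). The counted models of MMRN2 had a mean length of 853 bases, and whether its counts came from the opposite strand was not examined. For PRDX5 they were NDUFAB1, the mitochondrial acyl carrier protein (r = 0.998, log2 fold change -0.57), and the TALON gene TALONG000067471 (r = 0.994). For SOD2 they were KXD1 (r = 0.976) and the TALON gene TALONG000065130 (r = 0.967), all over n = 6 libraries.

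The libraries differed in how expression deviated with transcript length. Spearman's rho between a gene's deviation from its mean and its length, across genes, which are not independent replicates, was -0.32, -0.33 and 0.12 in siControl and 0.15, 0.36 and 0.14 in siDelta2-4. With the trend removed from each library, the log2 fold changes were 0.69 for PRDX4 (limma, adjusted p = 0.00578), -0.35 for PRDX5 (adjusted p = 0.0480) and 0.13 for SOD2. The trend ran partly with the group, so its removal cannot separate it from the siRNA, and its part in the changes was not tested. The same correction moved PRDX3 from 0.19 to 0.01 and PRDX6 from -0.01 to -0.17, neither of which was called (adjusted p = 0.960 and 0.354). On library totals without TMM scaling the log2 fold change of PRDX4 was 0.79 (edgeR, adjusted p = 0.00287) and that of PRDX5 was -0.34 (adjusted p = 0.0620). In bulk libraries such as these, a lower level per cell and fewer cells holding a transcript cannot be told apart.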

How the data were processed

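The authors' deposited counts were whole numbers of long reads per TALON transcript model, not normalised. Per the labels and methods, PCR-cDNA libraries were aligned to GRCh38.p14 with minimap2 2.14, sorted with SAMtools 1.13, corrected with TranscriptClean and annotated with TALON against Gencode, keeping unannotated models by a minimum of reads across samples. Deposited model lengths, in bases, were used as given. Counts were summed per gene identifier, and 3 siControl were compared with 3 siDelta2-4 libraries without covariates in edgeR 4.0.16 (R 4.3.3) by glmQLFit and glmQLFTest after filterByExpr and TMM, two-sided, with Benjamini-Hochberg adjustment. SEs were obtained from the log2 fold change and the square root of F. Log2 CPM had a prior count of 2. Models were fitted alike, and usage with diffSpliceDGE. Coding sequences were aligned with Biopython 1.88. Alternatives included DESeq2 1.42.0 and a loess length trend (span 0.4) with limma 3.58.1. The fits were tested on simulated data. The genes and lists were chosen with earlier results of these data known. Named were the 10 genes, called genes of the lists and otherwise the 3 most abundant of each, models with at least 10% of a gene's counts or called, opposite-strand genes, and the 2 most correlated genes of the 3 largest changes. TXNL1, MGST1, MGST2 and genes below the filter, also named, were chosen after their values were seen. Counting error alone limits genes of few counts, such as SOD2.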

Additional observations from a re-analysis of the deposited data

How the results depend on the processing

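PRDX4 kept its call in all 17 alternatives and PRDX5 in 14. Known models alone and both strands summed left the counts of PRDX4 and PRDX5 themselves unchanged, so they were no check of those counts. The number of called genes among the 10 was 2 in each alternative except those leaving out a library, where it ranged from 1 to 2. Among the 43 further defence genes, of which 18 could be tested in the main fit, 1 was called there. The number called was 3 on library totals, 2 with a minimum of 10 counts per library, 2 on known models alone and 3 with the length trend removed. It was 0 to 4 when a library was left out (4 without the lowest siControl library, 0 without the middle library of either group). Called models of the 10 genes went from 1 to 2 with a minimum of 10 counts per library and ranged from 1 to 2 when a library was left out. Called usage was 0 in every alternative. The shares called over all genes or models under each alternative are not given here, so these counts are not read as results about the genes. Neighbouring pairs of levels that did not overlap went from 3 to 7 per kb and to 5 on known models. The cause of these shifts was not tested.

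Signs turned only for genes near 0, none of which was called in any alternative. With DESeq2's test and with its size factors the log2 fold changes were -0.00034 and -0.00045 for PRDX1, -0.0055 and -0.0053 for PRDX2, and -0.0199 and -0.0198 for SOD1. TMM without ribosomal protein and mitochondrial genes gave -0.00077 for PRDX2 and -0.0154 for SOD1, no filter gave -0.0096 for SOD1, known models gave -0.032 for PRDX2 and -0.040 for SOD1, and both strands summed, chosen after seeing the data, gave -0.0138 for PRDX2. Library totals gave 0.059 for PRDX6 and 0.023 for GSTP1, and the length correction gave 0.0017 for TXN and 0.031 for GSTP1. Leaving out a library gave -0.024 to 0.072 for PRDX1, -0.055 to 0.056 for PRDX2, -0.082 to 0.0082 for PRDX6, and -0.045 to 0.029 for SOD1.

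The number in the column names gave no clear sign of pairing, which so few libraries cannot decide. Correlations of same-numbered deviations from the group means were 0.039, -0.136 and -0.0843. A replicate block on that number left 2 of the 10 genes, 1 of the further genes and 1 model called. PRDX4 was then at 0.73 (edgeR's quasi-likelihood test, adjusted p = 0.0120) and PRDX5 at -0.41 (adjusted p = 0.0626).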
